A study of Mus musculus with 4 samples.

Results

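The miR-106b~25 cluster is a group of 3 microRNA (miRNA) hairpins, Mir106b, Mir93 and Mir25, cut from 1 primary transcript of the gene Mcm7. Its entries were taken by name, as every mature miRNA whose identifier begins with miR-106b-, miR-93- or miR-25-. That gave 6 of the 795 mature miRNAs in the deposited table, namely both arms of each hairpin, mmu-miR-25-3p, mmu-miR-25-5p, mmu-miR-93-5p, mmu-miR-93-3p, mmu-miR-106b-5p and mmu-miR-106b-3p (written below without the species prefix), and all 6 had reads in all 4 libraries. The libraries hold small RNA of exosomes, vesicles that cells shed into their medium, from 2 mouse colon carcinoma lines grown in exosome-free medium. C26 tumours are a common model of cachexia, the wasting of muscle and fat in tumour-bearing mice, and MC38 is a line of another mouse strain. The exosomes were collected in 2 ways, by precipitation (ExoQuick-TC reagent) and by binding to a capture ELISA kit (Wako), giving 1 library for each line and kit and no replicate. No genetic change and no drug is named in the labels. Nothing in the labels ties the libraries to separate cultures, so differences between these 4 samples may be technical. With no replicate, p-values do not measure a spread between replicates. In the main test the spread comes from a trend over all miRNAs tested, and it reflects how far the line difference varies between the kits. Where 4 values are given in a row, they stand for ExoQuick from C26, ExoQuick from MC38, Wako from C26 and Wako from MC38.

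Mcm7 encodes a subunit of the helicase that opens DNA for replication, and its transcription follows the E2F factors that drive cells into S phase. The hairpins inside its transcript are released by Drosha and Dicer, and of each hairpin 1 arm is usually loaded into Argonaute as the guide while the other, the passenger, is degraded. In mammals miR-106b-5p and miR-93-5p repress the cell-cycle inhibitor Cdkn1a and also E2f1, and miR-25-3p represses Cdkn1c and the pro-apoptotic gene Bcl2l11. The cluster is often raised in gastrointestinal tumours.

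In GRCm38 the hairpins lie on the minus strand of chromosome 5, at chr5:138165737-138165818 (Mir106b), chr5:138165523-138165610 (Mir93) and chr5:138165321-138165404 (Mir25). All 3 lie in intron 13 of 14 of the principal coding transcript of Mcm7, an intron that spans 748 bases from 138165162 to 138165909. From the first to the last hairpin base they span 498 bases, with gaps of 126 bases between Mir106b and Mir93 and of 118 bases between Mir93 and Mir25. The build used for the deposited table is not given in the sources used here, and the entries were matched to RefSeq (GRCm38.p6) by name, with 6 of 6 found. The hairpins are shown 5′ to 3′ in the order of transcription, with the 5p arm and then the 3p arm in capitals, since the results turn on how reads divide between hairpins and between arms.

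Mir106b: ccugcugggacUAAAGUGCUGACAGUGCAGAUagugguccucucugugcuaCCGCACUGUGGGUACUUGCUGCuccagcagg
Mir93: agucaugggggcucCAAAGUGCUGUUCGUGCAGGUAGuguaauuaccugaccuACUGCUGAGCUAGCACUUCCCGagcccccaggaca
Mir25: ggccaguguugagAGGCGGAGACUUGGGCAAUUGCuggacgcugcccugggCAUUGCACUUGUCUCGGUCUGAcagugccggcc

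A miRNA finds its targets mainly through its seed, bases 2 to 8 counted from the 5′ end. The mature sequences below have the seed in capitals and are shown because the cluster holds 2 seed families. miR-93-5p and miR-106b-5p share the seed of miR-17-5p from the miR-17~92 cluster on chromosome 14, and miR-25-3p shares that of miR-92a-3p, made by the same cluster and by a copy on chromosome X.

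miR-93-5p: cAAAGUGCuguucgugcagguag
miR-106b-5p: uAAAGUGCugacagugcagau
miR-17-5p: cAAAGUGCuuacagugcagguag
miR-25-3p: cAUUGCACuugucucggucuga
miR-92a-3p: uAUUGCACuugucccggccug
miR-106b-3p: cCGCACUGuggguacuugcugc

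miR-106b-3p, the other arm of Mir106b, carries a seed of its own. Over their best ungapped alignment, miR-93-5p and miR-106b-5p match at 16 bases of 21, and miR-25-3p and miR-92a-3p at 18 of 21. miR-93-5p and miR-25-3p, which are cut from the same transcript, match at 9 of 22.

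Values are RPM, reads relative to the library total. The totals were 1356801 and 340643 reads with ExoQuick and 33692 and 3867 with Wako, from C26 and MC38 in turn, and 1 read was worth 0.737, 2.94, 29.7 and 259 RPM. Intervals are exact 95% Clopper-Pearson intervals of the recovered reads, and they cover counting error only. MC38 Wako stands apart by its depth. Its content also differs from that of the ExoQuick library of the same line: miR-214-3p stood at 22498 RPM (87 reads) in MC38 Wako, against 443 in MC38 ExoQuick. In C26 this miRNA stood at 68331 RPM with ExoQuick and 31165 (1050 reads) with Wako, so that MC38 ExoQuick is the low library. Whether reads of another library take part in the cluster's values in MC38 Wako was not tested. Of 8 miRNAs typical of gut or other epithelium, miR-192-5p and miR-194-5p were analysed here, at a summed 75.9, 64.6, 148 and 1034 RPM. miR-192-5p was lower with Wako in both lines, at 55.3, 38.2, 29.7 and 0 RPM (75, 13, 1 and 0 reads). miR-194-5p was higher with Wako in both, at 20.6, 26.4, 119 and 1034 RPM (28, 9, 4 and 4 reads). The sum in MC38 Wako thus rests on 4 reads of miR-194-5p alone. The cluster is also abundant in red blood cells. The 5 red cell entries (miR-451a, miR-486a-5p, miR-486b-5p, miR-144-3p and miR-144-5p, with the miR-486 reads listed under both names) summed to 441, 85.1, 1989 and 1293 RPM, higher in both Wako libraries. miR-451a itself stood at 6.63, 2.94, 237 and 259 RPM, on 9, 1, 8 and 1 reads. The miR-486 reads numbered 289, 13, 25 and 2. miR-144-3p and miR-144-5p had 0 reads in MC38 Wako, so no red cell entry had more than 2 reads in that library. Among the 166 miRNAs with reads in every library, 50% lay higher in both Wako libraries than in both ExoQuick libraries. The part of the red cell entries in the results was not tested.

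The 3 hairpins were present at very unequal levels, and in nearly the same proportions in every library. Of all reads of the cluster, the miR-25 hairpin gave 83.7% (interval 83.6 to 83.8) and 81.6% (81.3 to 82.0) with ExoQuick, from C26 and MC38, and 77.4% (75.9 to 78.9) and 80.7% (76.9 to 84.1) with Wako. The miR-93 hairpin gave 15.3%, 17.4%, 21.4% and 17.9%, and the miR-106b hairpin 1.04%, 0.972%, 1.24% and 1.41%. The intervals of the miR-106b share all overlap, from 1.01 to 1.08 in C26 ExoQuick to 0.568 to 2.88 in MC38 Wako. C26 Wako had the lowest miR-25 share and the highest miR-93 share, and its miR-25 interval lies below those of both ExoQuick libraries.

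As a whole the cluster made up 21.0% (interval 20.9 to 21.1) and 11.3% (11.2 to 11.4) of the ExoQuick libraries of C26 and MC38, and 8.88% (8.58 to 9.19) and 12.9% (11.8 to 13.9) of their Wako libraries. The highest and the lowest of these shares both belong to C26, so the libraries of the lines overlap, and so do those of the kits.

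**Figure D1:**
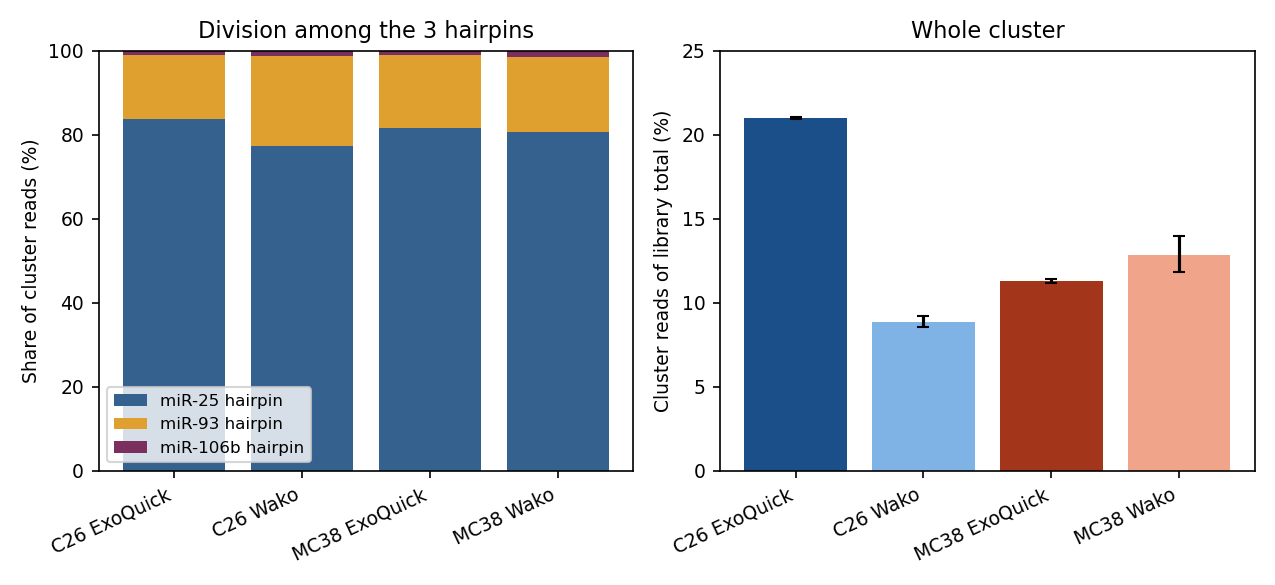
Left, the share of the cluster's reads from each hairpin (%), 1 stacked bar per library; right, the share of the library total taken by all 6 arms (%), with exact 95% intervals as bars. The miR-25 hairpin holds 77.4% to 83.7% of the cluster in each library, while the whole cluster ranges from 8.88% to 21.0% of the library.

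miR-25-3p, the guide arm of the last hairpin, was the second most abundant miRNA in both ExoQuick libraries and in C26 Wako, and ranked 3 in MC38 Wako. With ExoQuick it stood at 175751 RPM (C26) and 92187 (MC38), and with Wako at 67731 (C26) and 102664 (MC38), on 238459, 31403, 2282 and 397 reads. C26 ExoQuick is the high library and C26 Wako the low one, with both MC38 libraries between them.

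miR-93-5p, the guide arm of the middle hairpin, stood at 31958 RPM (C26) and 19595 (MC38) with ExoQuick and at 18669 (C26) and 22498 (MC38) with Wako, with ranks of 10, 11, 18 and 9. Its highest and lowest values were again those of C26. The interval in C26 Wako (17251 to 20171 RPM) overlaps those in MC38 ExoQuick (19132 to 20066) and MC38 Wako (18058 to 27678). Within a library miR-25-3p exceeded miR-93-5p by 5.499-fold and 4.70-fold with ExoQuick and by 3.63-fold and 4.56-fold with Wako, from C26 and MC38.

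miR-106b-5p, after which the cluster is named, was scarce. With ExoQuick it stood at 53.1 RPM (C26) and 64.6 (MC38), on 72 and 22 reads, and with Wako at 178 (C26) and 259 (MC38), on 6 and 1 reads. Both Wako libraries are above both ExoQuick libraries in this value, but the interval in MC38 Wako runs from 6.55 to 1440 RPM and holds all the other levels. The intervals of the ExoQuick libraries, 41.5 to 66.8 and 40.5 to 97.8 RPM, overlap. Within a library miR-25-3p exceeded it by 3312-fold and 1427-fold with ExoQuick and by 380-fold and 397-fold with Wako.

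Most reads of Mir106b came instead from miR-106b-3p, the arm usually counted as the passenger. It stood at 2138 RPM (C26) and 1033 (MC38) with ExoQuick and at 920 (C26) and 1552 (MC38) with Wako, on 2901, 352, 31 and 6 reads. It exceeded miR-106b-5p by 40.3-fold and 16.0-fold with ExoQuick and by 5.17-fold and 6-fold with Wako. Its values run in the order of those of miR-25-3p, with C26 ExoQuick high and C26 Wako low. The interval in C26 Wako (625 to 1306 RPM) overlaps those in MC38 ExoQuick (928 to 1147) and MC38 Wako (570 to 3374), so the low place is not settled. The values of the 5p arm of its own hairpin run in another order, on 6 and 1 reads with Wako.

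The passenger arms of the other hairpins were as scarce as miR-106b-5p with ExoQuick. miR-25-5p stood at 38.3 RPM (C26) and 61.7 (MC38) with ExoQuick, on 52 and 21 reads, against 979 (C26) and 1034 (MC38) with Wako, on 33 and 4 reads. Both Wako libraries are above both ExoQuick libraries, with no overlap of their intervals, while within each kit the intervals of the lines overlap. miR-93-3p stood at 72.2 RPM (C26) and 49.9 (MC38) with ExoQuick, on 98 and 17 reads, and at 297 (C26) and 517 (MC38) with Wako, on 10 and 2 reads. Both Wako values are again the higher ones, but the interval in MC38 Wako reaches down to 62.6 RPM and overlaps those of both ExoQuick libraries.

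**Figure D2:**
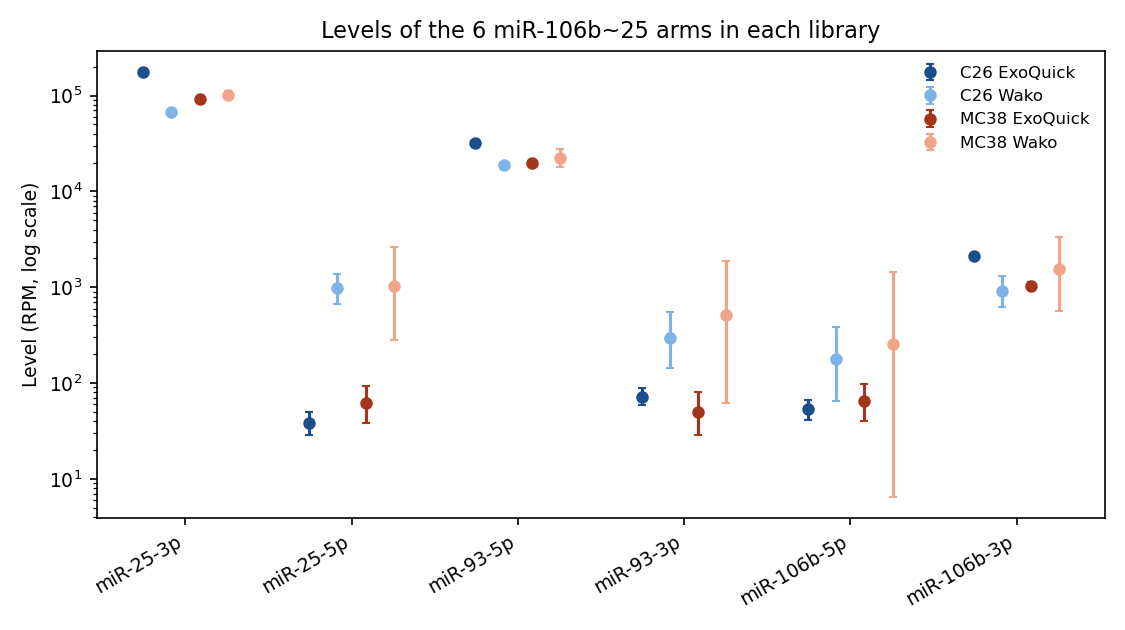
RPM (log axis) of the 6 arms in the 4 libraries, with exact 95% intervals as bars. miR-25-3p, miR-93-5p and miR-106b-3p keep their order in each library, whereas miR-25-5p, miR-93-3p and miR-106b-5p are higher in both Wako libraries than in both ExoQuick libraries.

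The order of the mean levels over the 4 libraries was miR-25-3p (109583 RPM), miR-93-5p (23180), miR-106b-3p (1411), miR-25-5p (528), miR-93-3p (234) and miR-106b-5p (139), places 2, 10, 66, 105, 157 and 196 among 795. The first 3 of these kept their order in all 4 libraries with intervals that do not overlap. In the Wako libraries, miR-106b-3p could not be separated from miR-25-5p, with intervals of 625 to 1306 and 674 to 1375 RPM in C26. The last 3 had overlapping intervals in both MC38 libraries. In C26 ExoQuick, miR-93-3p was above miR-25-5p, with miR-106b-5p overlapping both, and in C26 Wako miR-25-5p stood above the other two.

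The division of reads between the arms of a hairpin also differed between the kits. With ExoQuick, the 5p arm made up 0.0218% of the miR-25 hairpin's reads in C26 (interval 0.0163 to 0.0286) and 0.0668% in MC38 (0.0414 to 0.102), and with Wako 1.43% in C26 (0.983 to 1.996) and 0.998% in MC38 (0.272 to 2.53). The odds of a read coming from the rarer arm were thus 66.3 times as high with Wako in C26 (exact 95% interval 41.4 to 105) and 15.1 times as high in MC38 (3.74 to 44.9). In neither line do the intervals of the kits overlap.

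For the miR-93 hairpin, the 3p share with ExoQuick was 0.225% in C26 and 0.254% in MC38, and with Wako 1.56% and 2.25%. The odds ratio was 7.03 in C26 (3.25 to 13.6) and 9.03 in MC38 (0.996 to 38.9, which holds 1). For the miR-106b hairpin, the 5p share with ExoQuick was 2.42% in C26 (1.90 to 3.04) and 5.88% in MC38 (3.72 to 8.77), and with Wako 16.2% and 14.3%. The odds ratio was 7.80 in C26 (2.57 to 19.7), while in MC38, with 7 reads of both arms in the Wako library, it was 2.67 (0.0555 to 23.4).

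In all 3 hairpins and both lines the rarer arm thus held a larger share with Wako, though in MC38 the interval clears 1 for miR-25 alone. In MC38 Wako the rarer arms of miR-25, miR-93 and miR-106b had 4, 2 and 1 reads. At that depth, 1 read of the rarer arm is enough for a larger share than with ExoQuick in each of these hairpins. The direction in MC38 was thus fixed once any such read was found. Of 36 other hairpins with both arms in the table and at least 10 reads of both together in every library, 10 had a larger share of the rarer arm with Wako in both lines, 11 a smaller share in both, and 15 differed between the lines or were equal. The rarer arm was the one with the lower mean value over these same 4 libraries. It can lead in a library, as let-7d-3p did with ExoQuick (88.5% and 55.1%, against 27.5% and 25.5% with Wako, in C26 and MC38). The miR-106b hairpin, with 7 reads in MC38 Wako, would not meet the minimum of 10. In MC38 Wako, 17 of these 36 had 0 reads of the rarer arm, and the background depends on the minimum: of 24 other hairpins with at least 20 reads, 8 had a larger share with Wako in both lines and 5 a smaller one. The median share over the 36 was 1.45% and 1.62% with ExoQuick, from C26 and MC38, and 2.17% and 1.87% with Wako. Over the 24 it was 1.38% and 1.55% with ExoQuick and 2.56% and 3.58% with Wako, higher with Wako in both lines. With ExoQuick the miR-25 and miR-93 hairpins lie below the medians of either set, and with Wako they lie nearer to those of the 36. This comparison was chosen after the values were seen, and no test of the difference between the hairpins was made.

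**Figure D3:**
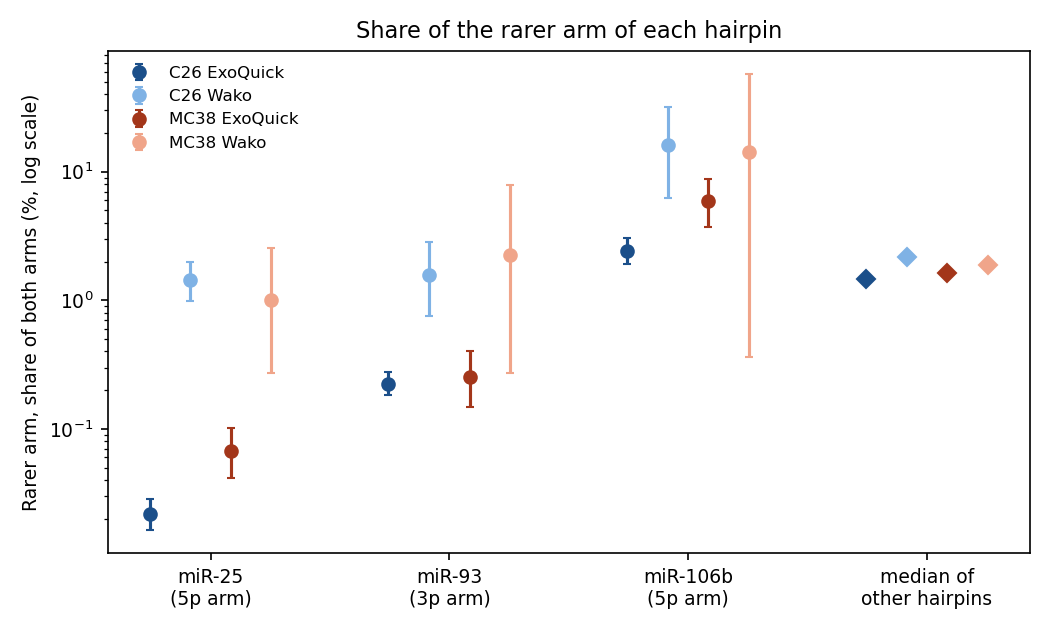
Share of the rarer arm among reads of both arms of a hairpin (%, log axis) for each library, with exact 95% intervals; diamonds are medians over 36 other hairpins with at least 10 reads. The miR-25 hairpin moves from 0.0218% and 0.0668% with ExoQuick to 1.43% and 0.998% with Wako, and the medians of the 36 lie between 1.45% and 2.17% (1.38% to 3.58% for the 24 with at least 20 reads).

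The ratios between the arms usually taken as guides were compared over the libraries, since a ratio within a library needs no scaling. On the log2 scale, miR-25-3p over miR-93-5p was 2.46 and 1.86 in C26 ExoQuick and Wako and 2.23 and 2.19 in MC38 ExoQuick and Wako. The mean difference of C26 from MC38 was −0.05 (two-sided exact permutation p = 1), and the lines overlap. Between Wako and ExoQuick it was −0.32, and the kits do not overlap. In MC38 they stand as close as 2.19 and 2.23, the Wako value on 397 and 87 reads. miR-25-3p over miR-106b-5p differed by −2.48 between Wako and ExoQuick and miR-93-5p over miR-106b-5p by −2.16, again with no overlap of the kits. Both use miR-106b-5p, which had 1 read in MC38 Wako. The 3 ratios are not independent, since any 2 give the third. How often other pairs of miRNAs show no overlap was not counted. Each of these 3 kit differences had an exact permutation p of 0.33 (adjusted p = 0.667 over 6 tests), which is the smallest that 2 libraries against 2 can give. The 2 line differences with miR-106b-5p were 0.58 and 0.63 (exact permutation p = 1 and 0.667, adjusted p = 1 for both), and each changes sign without C26 ExoQuick (−0.98 and −0.63) or without MC38 Wako (−0.35 and −0.27). That of miR-25-3p over miR-93-5p becomes 0.25 without C26 Wako. Without 1 library, 1 of the lines is left with 1 kit only. These values thus mix the line and the kit difference and do not test the line difference alone.

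The title of the series asks how exosomal miRNAs differ between C26 and MC38. For the cluster, the answer differed between the kits. With ExoQuick, miR-25-3p was 1.91-fold higher in C26 than in MC38 (exact 95% interval 1.88 to 1.93), miR-93-5p 1.63-fold (1.59 to 1.67) and miR-106b-3p 2.07-fold (1.85 to 2.32). With Wako, the ratio of C26 to MC38 was 0.660 for miR-25-3p (0.593 to 0.736), 0.830 for miR-93-5p (0.662 to 1.05, which holds 1) and 0.593 for miR-106b-3p (0.244 to 1.74, which holds 1). Each of the 3 abundant arms was thus higher in C26 with ExoQuick and lower in C26 with Wako, and only for miR-25-3p do both intervals exclude 1. Over the 76 miRNAs averaging 1000 RPM or more, the median log2 ratio of C26 to MC38 was 0.93 with ExoQuick and 0.28 with Wako. The ExoQuick value of miR-25-3p, 0.93, is thus that of the median abundant miRNA, while its Wako value, −0.60, lies below the median.

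For the scarce arms, all 6 intervals of the ratio of C26 to MC38 hold 1. With ExoQuick the ratios were 0.622 for miR-25-5p (0.368 to 1.09), 1.45 for miR-93-3p (0.859 to 2.59) and 0.822 for miR-106b-5p (0.504 to 1.39). With Wako they were 0.947, 0.574 and 0.689, on at most 4 reads in MC38 Wako, where 3 reads are worth 776 RPM. The intervals there reach from 0.337 to 3.68 for miR-25-5p and wider for the others. Opposite directions under the kits were seen for 4 of the 6 arms, and for 68 of the 166 miRNAs with reads in every library (41.0%).

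Over both kits, 0 of the 6 arms passed the line comparison in limma (fitted on log2(value + 1) over 390 miRNAs averaging 10 RPM or more, kit as a second term, Benjamini-Hochberg adjusted p under 0.05). Of all 390, 13 passed (3.33%). edgeR and DESeq2 on the recovered reads also called 0 of the 6 (4.87% and 5.58% of all miRNAs with an adjusted p), and none of the 6 had an unadjusted p under 0.05 in any of the 3 tools. The fitted log2 difference of C26 against MC38 was 0.17 for miR-25-3p (SE 0.97, limma adjusted p = 0.937), 0.22 for miR-93-5p (SE 0.85, adjusted p = 0.910) and 0.15 for miR-106b-3p (SE 0.93, adjusted p = 0.940). It was −0.38 for miR-25-5p, −0.14 for miR-93-3p and −0.41 for miR-106b-5p, with adjusted p from 0.910 to 0.963. The median over the 6 was 0.01, against 1.85 over all 390, many of which have 0 reads in MC38 Wako and a difference set by the pseudocount. The sign for the 3 abundant arms is not settled: it turned with median-ratio scaling (−0.20, −0.15 and −0.22, at a median over the 390 of 1.30), and quantile normalization gave 0.27, −0.53 and −0.44 (median −0.05). For 0 of the 6 arms do the lines separate, whereas both C26 libraries lay above both MC38 libraries for 31.5% of the 390 and below them for 6.41% (16.3% and 9.64% of the 166 with reads in every library).

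**Figure D4:**
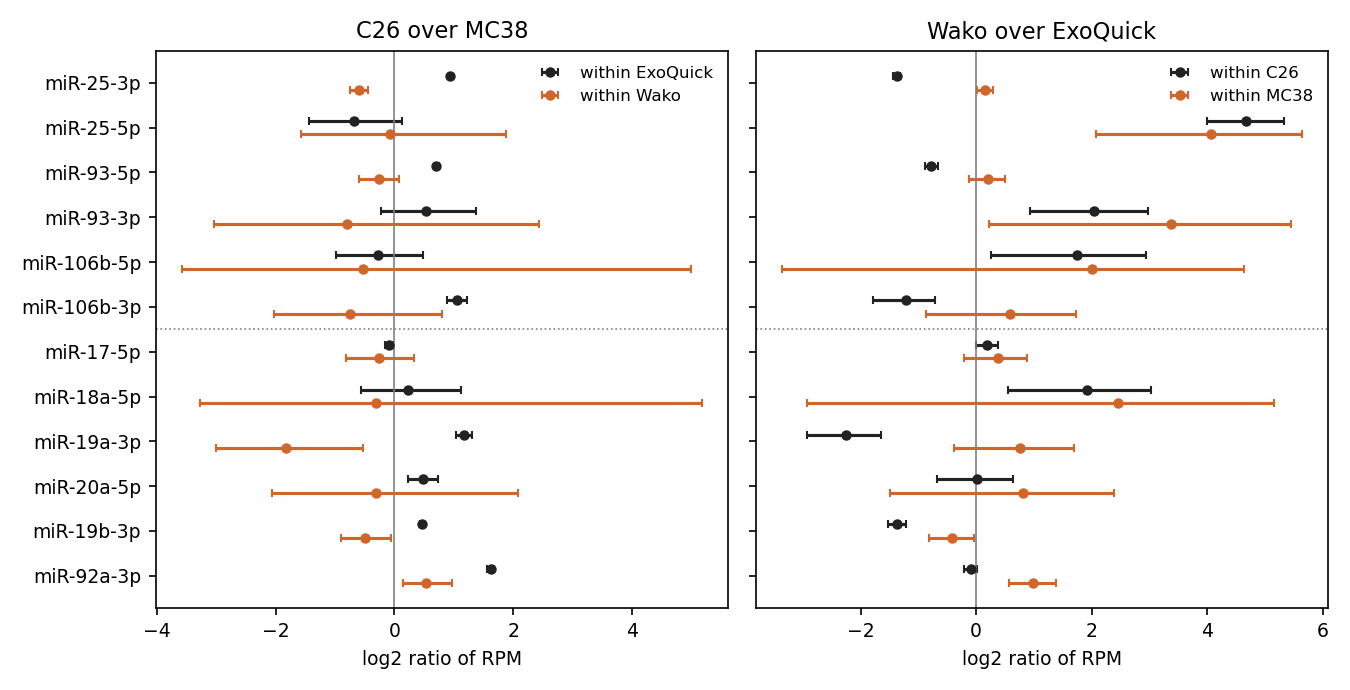
log2 ratios of RPM with exact 95% intervals, C26 over MC38 within each kit (left) and Wako over ExoQuick within each line (right), for the 6 arms of the cluster (above the dotted line) and 6 arms of miR-17~92 (below it). miR-25-3p sits on opposite sides of 0 in each panel (0.93 and −0.60, −1.38 and 0.16), while miR-25-5p is above 0 in both lines on the right.

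The second comparison implied by the design is between the isolation kits. miR-25-5p was 25.6-fold higher with Wako than with ExoQuick in C26 (exact 95% interval 16.0 to 40.3) and 16.8-fold higher in MC38 (4.19 to 49.7). miR-93-3p was 4.11-fold higher in C26 (1.91 to 7.88) and 10.4-fold in MC38 (1.16 to 43.7). miR-106b-5p was 3.36-fold higher in C26 (1.19 to 7.67), and its ratio of 4.004 in MC38 rests on 1 read (0.097 to 24.8). These are the 3 rarer arms, and for each both Wako libraries lay above both ExoQuick libraries, as they did for 23.1% of all 390 miRNAs. In MC38 Wako 1 read is worth 259 RPM, more than any ExoQuick value of these arms. Their place in that library was thus fixed once 1 read was found. The same floor lies under the MC38 Wako value of every miRNA with reads there. All 6 arms have reads in every library, and among the 166 miRNAs of that kind 50% had this order, so that 3 of 6 arms is the background share. The median log2 of Wako over ExoQuick among the 166 was 0.65 in C26 and 2.15 in MC38, against 4.68 and 4.07 for miR-25-5p, 2.04 and 3.37 for miR-93-3p and 1.75 and 2.0 for miR-106b-5p. For none of the 6 arms did both ExoQuick libraries lie above both Wako libraries (14.9% of the 390 and 11.4% of the 166).

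The abundant arms differed between the lines instead. In C26 they were lower with Wako, with ratios of 0.385 for miR-25-3p (0.370 to 0.402), 0.584 for miR-93-5p (0.539 to 0.632) and 0.430 for miR-106b-3p (0.292 to 0.612). In MC38 the ratios were 1.11 for miR-25-3p (1.01 to 1.23), 1.15 for miR-93-5p (0.918 to 1.42) and 1.502 for miR-106b-3p (0.547 to 3.30), and the last 2 intervals hold 1. Both Wako libraries are shallower than both ExoQuick libraries, so that kit and depth cannot be told apart.

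In limma with line as a second term, 0 of the 6 arms passed the kit comparison, against 21 of 390 in all (5.38%). edgeR and DESeq2 also called 0 of the 6 (1.79% and 10.3% of all miRNAs with an adjusted p), with an unadjusted p under 0.05 for 1 in limma and 3 in each of the others. DESeq2 gave no adjusted p for miR-93-3p and miR-106b-5p. miR-25-5p came nearest, with a log2 difference of 4.34 for Wako against ExoQuick (SE 1.48, limma adjusted p = 0.0624, higher in both lines). Over the alternatives with all 4 libraries (limma settings, edgeR and DESeq2) its adjusted p ran from 0.0360 to 0.545. Among these it passed only with a pseudocount of 10 (limma adjusted p = 0.0360). Without MC38 ExoQuick, a fit with no line term and 1 ExoQuick library, its log2 difference was 4.68. miR-93-3p differed by 2.69 (SE 1.72, adjusted p = 0.556) and miR-106b-5p by 1.86 (SE 1.98, adjusted p = 0.758). For miR-25-3p the difference was −0.61 (SE 0.97, adjusted p = 0.881), and edgeR gave −2.11 (adjusted p = 0.119). The values for miR-93-5p and miR-106b-3p were −0.29 and −0.31, and −1.79 and −1.89 in edgeR. The edgeR values of the rarer arms were also lower, 2.96 for miR-25-5p, 1.04 for miR-93-3p and 0.38 for miR-106b-5p, and quantile normalization gave 0.025 for miR-106b-5p. The median of the 6 was 0.78, against 0.44 over the 390, and −0.64 with median-ratio scaling, against −0.60. The 3 rarer arms lie above 0 and the others below it in both fits.

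The profile of a member over the 4 libraries was set against all 76 miRNAs averaging 1000 RPM or more, by the root mean square difference of log2 values centred on each miRNA's own mean. This is a description over 4 libraries. The nearest to miR-25-3p was miR-106b-3p (0.16), followed by miR-93-5p (0.21), both from its own transcript, and by miR-19b-3p (0.22) of miR-17~92 and its copy on chromosome X. The nearest to miR-93-5p were miR-24-3p (0.14), miR-151-3p (0.21) and miR-106b-3p (0.21), with miR-25-3p in place 4. For miR-106b-5p they were miR-744-5p (0.34), let-7b-5p (0.46) and miR-328-3p (0.49), with miR-93-5p in place 25 and miR-25-3p in place 36. The profile of miR-106b-5p rests on 6 reads in C26 Wako and 1 in MC38 Wako, so its neighbours and these places are not settled. miR-744-5p stood at 419 and 420 RPM with ExoQuick and 1989 and 2845 with Wako, in C26 and MC38.

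Against the members of their own seed families, miR-93-5p and miR-25-3p were the most abundant in all 4 libraries. Of the reads of the 6 family members, miR-93-5p gave 83.3% (interval 83.0 to 83.7) and 74.9% (74.0 to 75.8) with ExoQuick, from C26 and MC38, and 72.0% (68.9 to 74.9) and 70.2% (61.3 to 78.0) with Wako. miR-17-5p, the next, gave 14.7%, 22.9%, 24.8% and 24.2%. miR-106b-5p, which has the same seed, gave 0.138%, 0.247%, 0.686% and 0.806%. The family is thus carried nearly whole by miR-93-5p and miR-17-5p, with miR-20a-5p at 443 to 776 RPM, miR-106a-5p at 29.7 to 776 RPM and miR-20b-5p with 4 reads in C26 ExoQuick and 0 elsewhere.

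Of the reads of the 4 members of its family analysed here, miR-25-3p gave 88.6% (interval 88.5 to 88.7) and 92.6% (92.3 to 92.9) with ExoQuick, from C26 and MC38, and 75.8% (74.2 to 77.3) and 86.9% (83.4 to 89.8) with Wako. Within each kit its share was higher in MC38, and within each line higher with ExoQuick. miR-92a-3p, the next, gave 11.1%, 7.20%, 23.1% and 12.0%. miR-92b-3p stood at 96.9 to 1034 RPM, and miR-32-5p had 0 reads in C26 Wako and 105 to 259 RPM elsewhere.

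**Figure D5:**
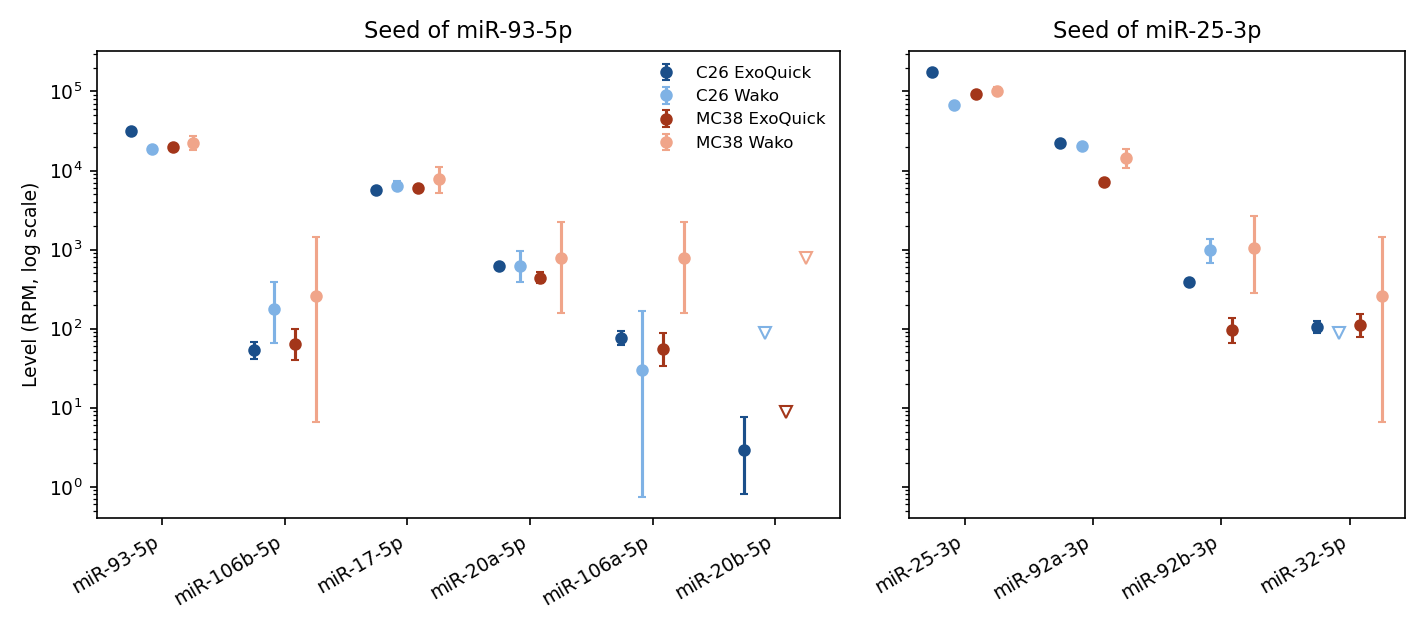
RPM (log axis) with exact 95% intervals for the members of the seed families of miR-93-5p (left) and miR-25-3p (right); open triangles mark 0 reads and stand at 3 reads of that library. miR-93-5p and miR-25-3p lead their families in each library, and miR-106b-5p lies 87.0-fold to 602-fold below miR-93-5p.

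The miR-17~92 cluster, the closest relative of the 3 hairpins, behaved in part alike. Of its 6 arms listed, 0 passed the line or the kit comparison in limma (background 3.33% and 5.38%), with a median log2 of −0.03 for C26 against MC38. In the kit comparison DESeq2 called miR-19b-3p lower with Wako (log2 −2.33, DESeq2 adjusted p = 0.0417), as it called 10.3% of all miRNAs with an adjusted p. miR-19b-3p and miR-19a-3p were 1.38-fold (1.35 to 1.42) and 2.25-fold (2.05 to 2.49) higher in C26 with ExoQuick. With Wako their ratios were 0.713 (0.538 to 0.960) and 0.281 (0.124 to 0.692), the same turn as in miR-25-3p. miR-92a-3p, by contrast, was higher in C26 under both kits, 3.08-fold with ExoQuick (2.95 to 3.21) and 1.45-fold with Wako (1.10 to 1.95), and its limma difference of 1.08 did not pass (SE 0.83, adjusted p = 0.711). miR-17-5p showed ratios of 0.939 (0.894 to 0.987) and 0.830 (0.565 to 1.26). No test of a difference between the clusters was made. Summed over its 6 listed arms miR-17~92 stood at 58675, 34737, 39089 and 40083 RPM, below the 210011, 112992, 88775 and 128523 RPM of the 6 arms of the Mcm7 cluster. The first sum takes 1 arm per hairpin, the second both arms. miR-19b-3p and miR-92a-3p, at 27215 and 22053 RPM in C26 ExoQuick, are also made by the copy on chromosome X. Their reads cannot be assigned to miR-17~92 alone.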

How the data were processed

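Small RNA was sequenced on the Illumina HiSeq platform, per the labels. The deposited table holds 1 normalized signal value per mature miRNA and library. The submitters' processing notes name DESeq2. Which aligner, counter, build or miRBase release was used is not given in the sources used here. All values (100%) were whole multiples of 1 step (tolerance 0.006), the worth of 1 read at a whole-number library total, so they were read as RPM and whole reads were recovered. Columns sum to 1020209 to 1057545; why they exceed the scale of RPM is not given in the sources used here.

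The main test was limma 3.58.1 (R 4.3.3) with a trend on log2(value + 1), with line and kit as terms, two-sided. It covered 390 miRNAs, those averaging 10 RPM or more. It has 1 residual degree of freedom, and the prior degrees of freedom were infinite, so the spread comes from the trend over all miRNAs. edgeR 4.0.16 and DESeq2 1.42.0 ran on recovered reads of the same 390. The fit was tried on simulated data with line effects and no kit effects, scored on miRNAs averaging 1000 RPM or more. Kit effects and scarcer arms were not covered. The text names all 6 arms, the miRNAs of fixed lists and the 3 nearest profiles per guide. Members and lists were chosen with earlier results of these data known. miR-363-3p, miR-367-3p and miR-18b-5p were not analysed here, nor 6 of 8 epithelial miRNAs. Sequences come from RefSeq (GRCm38.p6), the intron from GENCODE.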

Additional observations from a re-analysis of the deposited data

Results flagged for a closer look

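For 4 of the 6 arms the log2 ratio of C26 to MC38 has opposite signs under the kits, and the difference between the kits was not tested, since each ratio rests on 1 library per line. It was 0.93 with ExoQuick and −0.60 with Wako for miR-25-3p, 0.71 and −0.27 for miR-93-5p, 1.05 and −0.75 for miR-106b-3p, and 0.53 and −0.80 for miR-93-3p. For miR-25-3p alone do both exact intervals exclude a ratio of 1. Among 76 miRNAs averaging 1000 RPM or more, 28 had opposite signs (36.8%), and 17 of them were higher in C26 with ExoQuick and lower with Wako (22.4%). MC38 Wako, with 3867 reads, enters each of the Wako ratios, and its part in the turn of sign was not tested.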

How the results depend on the processing

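No paired analysis was possible beyond the fit itself because the labels give no replicate numbers; with line and kit as terms, that fit compares the lines within each kit and the kits within each line. The count of line calls over all miRNAs, 13, became 8 with no filter, 19 with edgeR and 0 with quantile normalization, median-ratio scaling, no trend or no kit term, and 0 to 58 without 1 library (fits without the kit term). The count of kit calls, 21, became 9 with no line term, 7 with edgeR, 0 with median-ratio scaling, quantile normalization or no trend, and 0 to 41 without 1 library. Of 84 line values of the 6 arms, 19 changed sign and 65 kept both sign and call; of 84 kit values, 3 changed sign, 2 (both miR-25-5p) passed, and 79 kept both.

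The line log2 changed sign with DESeq2 (miR-25-3p −0.20, miR-93-5p −0.15, miR-106b-3p −0.18), median-ratio scaling (−0.20, −0.15 and −0.22), quantile normalization (miR-93-5p −0.53, miR-106b-3p −0.44) and edgeR (miR-93-3p 0.13); the cause was not tested. Without 1 library, 1 line and 1 kit are each left with 1 library. No second term was fitted there, so the values mix line and kit. The line log2 then ran from −0.52 to 0.85 for miR-25-3p, −2.70 to 1.94 for miR-25-5p, −0.17 to 0.61 for miR-93-5p, −1.81 to 1.54 for miR-93-3p, −1.40 to 0.59 for miR-106b-5p and −0.46 to 0.76 for miR-106b-3p. The kit log2 ran from −0.64 to 0.065 for miR-93-5p and from −0.84 to 0.21 for miR-106b-3p. The ratio differences between lines ran from −0.35 to 0.25 (miR-25-3p over miR-93-5p), −0.98 to 2.14 (over miR-106b-5p) and −0.63 to 1.89 (miR-93-5p over miR-106b-5p); those between kits kept their sign. Relative to all listed reads the cluster made up 19.9% of C26 ExoQuick and 11.1% of MC38 ExoQuick. miR-25-3p was 84.6%, 78.2% and 82.4% of the 3 guides, and 83.7%, 76.3% and 81.6% of both arms, in C26 ExoQuick, C26 Wako and MC38 ExoQuick. With at least 20 reads of both arms, 38.5% of hairpins (miR-25 and miR-93 included) had a larger share of the rarer arm with Wako in both lines, against 31.6% at 10, and those with a smaller share in both fell from 11 to 5. Depth limits the rarer arms most, on 1 to 4 reads in MC38 Wako.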
